A study of Mus musculus with 2 samples.

Results

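Chemokine ligands are the small secreted proteins that attract leukocytes, and they were read here from synovium of the mouse knee, the tissue around the joint cavity, by the class of cell that carried their transcripts. The members are all genes whose symbol has the form Ccl, Cxcl, Xcl or Cx3cl followed by a number, with at least 10 UMIs over both libraries. UMIs are unique molecular identifiers, which count captured transcripts. There were 32 such ligands among 38 symbols of that form (44 gene identifiers), out of 32245 symbols in the tables. The other 6 stayed under the minimum: Ccl21b, Ccl21c and Ccl27b had 0 UMIs, and Ccl26, Cxcl15 and Cxcl17 had 1 or 2. Further identifiers of Ccl19, Ccl21a and Ccl27a on unplaced scaffolds had 0 UMIs. These genes have near-identical copies, so their counts are uncertain.

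The study compared wild type control mice with wild type mice of the MMS group, an abbreviation that its labels leave unexplained. The MMS group is marked D14, and the controls have no such mark. Each group is 1 single-cell library made from 20 pooled knees, after mincing and enzymatic digestion of the synovium. There were no replicate libraries, so no test between groups was possible. Each difference below is that of 1 library from another, and the 95% intervals account for the sampling of UMIs alone. The annotated cell type is goblet cells, but 0 of 6891 control and 0 of 3767 MMS cells kept had UMIs of at least 2 of 8 goblet markers. Cells were assigned to classes by gates on marker genes, none of them a chemokine ligand.

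Chemokines act through G protein-coupled receptors on leukocytes. Inflammatory ligands are switched on in tissue cells and macrophages by signals such as interleukin-1 and TNF, often through NF-kappaB. Homeostatic ligands such as Cxcl12 are made steadily by stromal cells and position cells that carry the matching receptor. In synovium, fibroblasts of the lining and sublining, macrophages and vessels are all known sources.

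Among the inducible ligands, Cxcl1, Cxcl2 and Cxcl3 lie close together on chromosome 5 and share a NF-kappaB type motif close before the start site. The 120 bases before the RefSeq start of each are shown because in the data below Cxcl1 lay mainly in fibroblasts, and its neighbours Cxcl2 and Cxcl3 in macrophages or monocytes. All 3 are on the plus strand in GRCm38.p6, at chr5:90891125-90891244 for Cxcl1, chr5:90903779-90903898 for Cxcl2 and chr5:90785981-90786100 for Cxcl3. Capitals mark matches to GGNNTTTCC on either strand.
Cxcl1: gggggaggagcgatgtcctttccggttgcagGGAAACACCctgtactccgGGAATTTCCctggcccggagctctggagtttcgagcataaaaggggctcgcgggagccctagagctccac
Cxcl2: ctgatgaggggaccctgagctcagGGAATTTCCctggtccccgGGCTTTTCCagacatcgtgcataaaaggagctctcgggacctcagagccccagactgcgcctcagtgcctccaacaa
Cxcl3: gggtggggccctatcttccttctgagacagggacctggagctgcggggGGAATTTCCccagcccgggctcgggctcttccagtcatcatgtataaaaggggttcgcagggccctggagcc
The run GGAATTTCC occurred in each of the 3, starting 70 bases before the start in Cxcl1, 96 in Cxcl2 and 72 in Cxcl3. A second match lay 89 bases before the start in Cxcl1, on the opposite strand, and 77 bases before it in Cxcl2. RefSeq windows were matched for 24 of the 32 ligands. GGNNTTTCC was present on either strand within 250 bases before the start in 7 of these 24 (Ccl9, Ccl20, Cxcl1, Cxcl2, Cxcl3, Cxcl9 and Cxcl10), against 4.93% of the 32851 windows in the table. GAAANNGAA, part of the interferon-stimulated response element, was present in 6 (Ccl1, Ccl3, Ccl19, Cxcl9, Cxcl10 and Cxcl14), against 7.13% of windows. Members were counted by gene and the background by window, so the shares differ in unit. The motifs were chosen with earlier results known and shortened by a base after a first search, so the shares are no test. A match is a description of the letters, not a site or a cause.

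Over all kept cells, chemokine ligands took 3525 of every 1000000 UMIs (CPM) in control and 2819 in MMS. Kept cells numbered 6891 with a median of 10990 UMIs in control and 3767 with a median of 17452 in MMS. The libraries shared 6 barcodes, 4 of them among kept cells. Gates placed all but 5.72% of control and 7.86% of MMS cells. The class makeup differed: neutrophils were 6 control and 256 MMS cells, macrophages or monocytes 1178 and 560, endothelial cells 1970 and 747, and fibroblasts 3152 and 1738. Within fibroblasts, lining cells were 234 of 3152 in control and 631 of 1738 in MMS, and sublining cells 2688 and 507. Median depth per fibroblast was 13751 UMIs in control and 27990 in MMS, so shares of cells below are also given after thinning to 5000 UMIs. Thinned shares cover only the cells with at least 5000 UMIs, so they leave out the shallower cells of each class.

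A ligand was counted as higher or lower when its CPM differed by more than 2-fold. Over all kept cells 7 of 32 ligands were higher in MMS and 11 lower, against 11.3% and 8.5% of all 18143 genes with at least 10 UMIs. In fibroblasts 10 of 28 were higher and 8 lower, against 12.1% and 9.72% of genes. Among macrophages or monocytes 6 of 23 were higher and 5 lower, against 5.31% and 5.02%. In endothelial cells 8 of 25 were higher and 5 lower, against 9.68% and 4.75%, but 2 were higher without each ligand's highest cell and 2 with stricter gates. The members' shares past 2-fold stood above the background in both directions in all kept cells, fibroblasts and macrophages or monocytes, while the endothelial share of higher ligands did not under those settings. Their median log2 ratio was -0.48 over all cells, -0.08 in fibroblasts, 0.33 in macrophages or monocytes and 0.78 in endothelial cells, where the medians of all genes were 0.03, 0.09, 0.02 and 0.07. In lining fibroblasts 11 of 19 were higher and 1 lower (8.35% and 5.32% of genes), and in sublining fibroblasts 7 of 24 and 5 (9.88% and 7.54%).

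**Figure D1:**
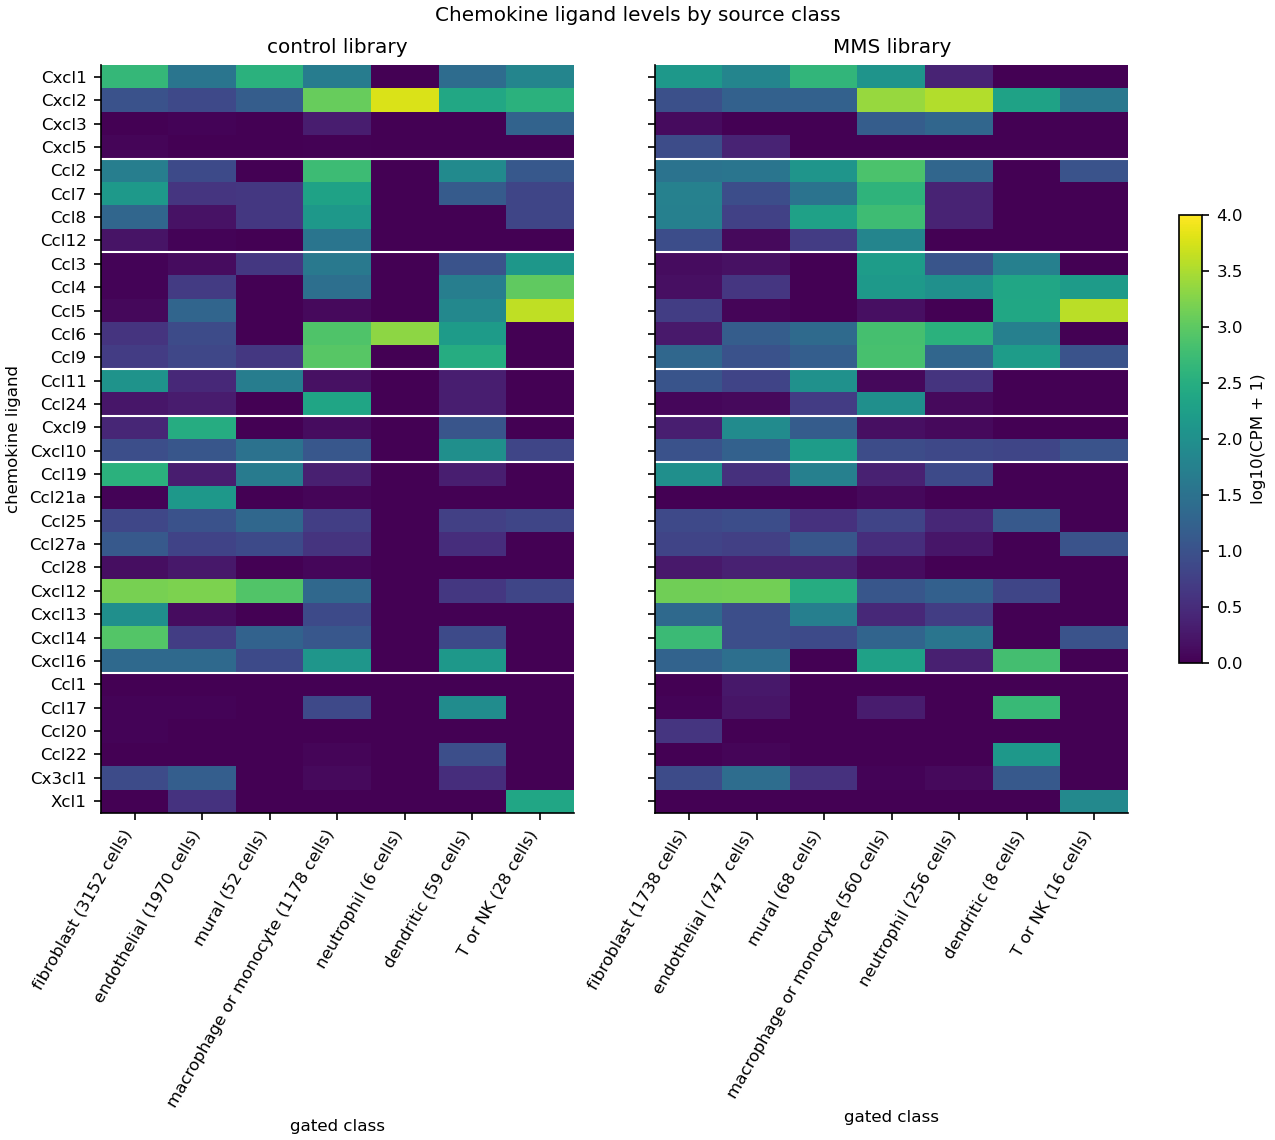
Level of each of the 32 ligands (rows, grouped by role with white lines between groups) in 7 gated classes (columns, with their number of cells), as log10(CPM + 1), in the control library (left) and the MMS library (right). Cxcl12 and Cxcl14 are bright in fibroblasts, Ccl6 and Ccl9 in macrophages or monocytes, and Ccl5 in T or NK cells, in both libraries.

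The ligands that attract neutrophils through the receptor CXCR2 had different sources. Cxcl1, the main fibroblast member, held 94.1% of its gated UMIs in fibroblasts in control and 75.5% in MMS. In fibroblasts it stood at 462 CPM for control and 137 for MMS, log2 ratio -1.76 (-1.80 to -1.72). Macrophages or monocytes stood at 47.6 and 117 CPM, log2 ratio 1.30 (1.17 to 1.44). So the same ligand was lower in MMS in its main source and higher in a smaller source, where the log2 ratio was 0.53 with a mitochondrial limit of 5% in place of 10%. In endothelial cells Cxcl1 stood at 35.2 and 64.5 CPM, log2 ratio 0.87 (0.66 to 1.08).

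Within fibroblasts the Cxcl1 difference depended on the subclass. Lining cells had 45.6 CPM for control and 52.6 for MMS, log2 ratio 0.21 (0.01 to 0.41). Sublining cells, the higher subclass in both libraries, had 543.5 and 287 CPM, log2 ratio -0.92 (-0.97 to -0.87). The fibroblasts left in neither subclass nor gated as tendon or cartilage had 276 and 146 CPM. The overall difference was thus larger than that in any of these subclasses, and the low-Cxcl1 lining cells were a larger share of MMS than of control fibroblasts. After thinning, 47.6% of control and 24.4% of MMS fibroblasts had a Cxcl1 UMI, against 57.8% and 39.1% before. The thinned shares in macrophages or monocytes were 7.41% and 16.2%.

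Cxcl2, the macrophage and neutrophil counterpart of Cxcl1, stood at 1168 CPM for control and 2418.5 for MMS in macrophages or monocytes, log2 ratio 1.05 (1.02 to 1.08). A Cxcl2 UMI was found in 48.9% of these cells in control and 78.4% in MMS, and in 43.7% and 74.4% after thinning. Endothelial cells, with median depths of 3576 and 7587 UMIs against 12956 and 14916 in macrophages or monocytes, had one in 2.23% and 6.16%. Both the level per class and the share of cells were thus higher in the MMS library, with a log2 ratio of 0.77 at a mitochondrial limit of 5%. In resident macrophages, gated by Lyve1, Timd4, Folr2 and similar markers, Cxcl2 stood at 998.5 and 2346 CPM, and in monocytes at 903 and 2013. The other cells of the class, 64 in control and 84 in MMS, had the opposite order and the highest levels, 3639.5 and 3058 CPM, log2 ratio -0.25 (-0.32 to -0.19). Their Cxcl1 stood at 247 and 155 CPM, also lower in MMS.

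Neutrophils carried Cxcl2 too. The 256 MMS neutrophils held 13654 Cxcl2 UMIs, 3449.5 CPM, with a UMI in 219 cells and no cell above 2.70% of the total. They made up 38.1% of all gated Cxcl2 UMIs in MMS, next to 60.1% in macrophages or monocytes, while in control macrophages or monocytes held 95.1%. The 6 control neutrophils held 122 UMIs and all 6 had at least 1, so the smaller total in control went with the number of cells. Over all kept cells Cxcl2 measured 269 CPM in control and 481 in MMS. Control levels per class with MMS class shares would give 472 CPM, and MMS levels with control class shares 521, so the parts of makeup and level cannot be told apart. The first of these values rests on the 6 control neutrophils.

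Cxcl3 and Cxcl5, the scarcer CXCR2 ligands, had few UMIs in control. Cxcl3 had 17 UMIs in control and 126 in MMS macrophages or monocytes, 1.06 and 14.2 CPM, and the MMS UMIs came from 15 cells. MMS neutrophils added 79 Cxcl3 UMIs in 8 cells. Cxcl5 had 6 UMIs in control and 375 in MMS fibroblasts, 0.128 and 7.53 CPM, log2 ratio 5.88 (4.75 to 7.34). These 375 UMIs were spread over 46 of 1738 cells, of which the highest held 9.33%. Fibroblasts outside the named subclasses held 238 of them, against 0 in control. Macrophages or monocytes held 1 Cxcl5 UMI in control and 0 in MMS, so the fibroblast UMIs stand above the level seen in that class. A single MMS Schwann cell held a further 54 Cxcl5 UMIs.

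**Figure D2:**
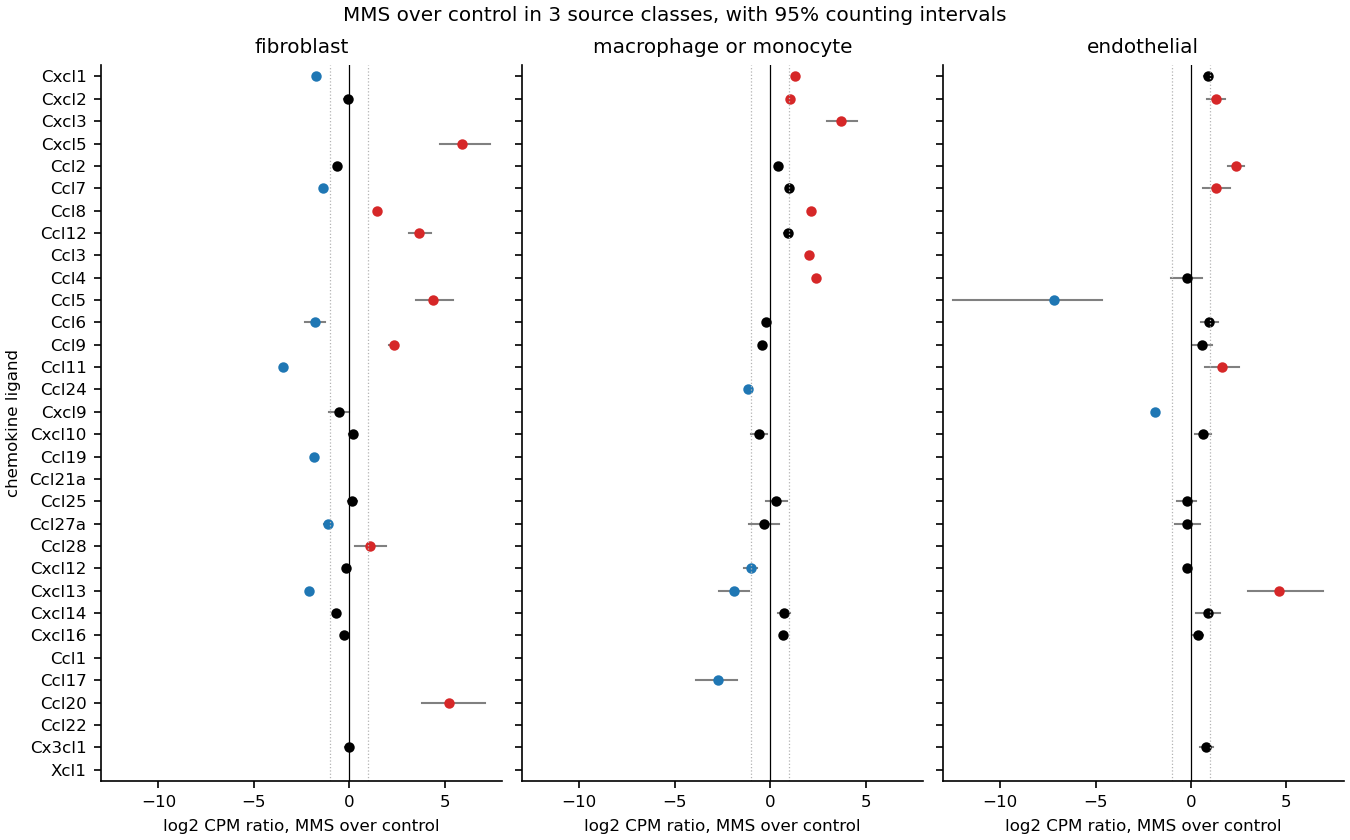
log2 CPM ratio of MMS over control (x axis) for each ligand with at least 50 UMIs in the class and UMIs in both libraries, in fibroblasts, macrophages or monocytes and endothelial cells; lines are 95% counting intervals, dotted lines mark 2-fold, and red and blue points lie past it. Cxcl1 lies at -1.76 in fibroblasts and at 1.30 in macrophages or monocytes, and Ccl11 at -3.49 in fibroblasts.

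The monocyte-attracting CC ligands, several of which bind CCR2, were shared between macrophages and fibroblasts. Ccl2, the best known monocyte attractant, held 77.0% of its gated UMIs in macrophages or monocytes in control and 76.3% in MMS. There it stood at 557 CPM for control and 744 for MMS, log2 ratio 0.42 (0.37 to 0.46), under 2-fold. In fibroblasts it stood at 50.7 and 32.1 CPM, log2 ratio -0.66 (-0.75 to -0.57), and in lining cells at 2.28 and 6.22 CPM.

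Endothelial Ccl2 was low in control and higher in MMS. It had 62 UMIs in 44 of 1970 control cells and 265 in 36 of 747 MMS cells, 6.89 and 35.3 CPM, log2 ratio 2.36 (1.95 to 2.78). Of the MMS UMIs, 189 lay in 11 endothelial cells that were gated neither as venular, arterial nor lymphatic, and 30.9% of all 265 lay in 1 cell. Few cells thus carried the difference.

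Ccl7, a close relative of Ccl2, was lower in MMS fibroblasts past 2-fold and not in macrophages or monocytes. In fibroblasts it stood at 147.5 CPM for control and 56.2 for MMS, log2 ratio -1.39 (-1.46 to -1.33). Macrophages or monocytes stood at 204 and 398 CPM, log2 ratio 0.96 (0.89 to 1.03), under 2-fold. Macrophages or monocytes thereby held 31.6% of the gated Ccl7 UMIs in control and 54.7% in MMS. Sublining fibroblasts, however, had 177 and 158 CPM, log2 ratio -0.16 (-0.24 to -0.09), so within that subclass the levels were near each other. In lining fibroblasts Ccl7 lay past 2-fold in the opposite direction, higher in MMS. The lower Ccl7 over all fibroblasts was thus seen in neither of these subclasses at 2-fold, and it did not stay past 2-fold under every alternative processing.

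Ccl8 was higher in MMS past 2-fold in both main sources, and Ccl12 in fibroblasts. Mouse Ccl8 is also known as a ligand of CCR8. Macrophage or monocyte Ccl8 stood at 133 CPM for control and 575.5 for MMS, log2 ratio 2.12 (2.04 to 2.19), with UMIs in 140 of 1178 and 89 of 560 cells. The shares of these cells with a Ccl8 UMI, 11.9% and 15.9%, or 10.1% and 12.7% after thinning, were closer than the levels, so the higher level went mainly with more UMIs in the cells that had any. In fibroblasts Ccl8 stood at 19.9 and 54.6 CPM, and in sublining cells at 15.96 and 71.04, log2 ratio 2.15. Of the control fibroblast UMIs 33.3% lay in 1 cell, and of the MMS ones 23.5%. Ccl12, a mouse CCR2 ligand, stood at 35.1 and 65.8 CPM in macrophages or monocytes, log2 ratio 0.91 (0.74 to 1.08), under 2-fold. In fibroblasts it had 29 UMIs in 8 control cells and 387 in 39 MMS cells, log2 ratio 3.65 (3.11 to 4.25).

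Among the inflammatory CC ligands, Ccl3 and Ccl4 (the MIP-1 proteins) were higher in MMS macrophages or monocytes. Ccl3 stood at 39.8 CPM for control and 164 for MMS, log2 ratio 2.04 (1.91 to 2.18). Ccl4 stood at 27.9 and 147 CPM, log2 ratio 2.39 (2.24 to 2.55), with a UMI in 7.89% and 24.6% of cells, or 5.74% and 17.3% after thinning. In the resident macrophages alone the log2 ratios were 2.18 for Ccl3 and 2.67 for Ccl4. In the monocytes, 20 control and 42 MMS cells, Ccl4 stood at 203 and 157 CPM, the opposite order. The control level rested on 45 UMIs in 4 cells, with 51.1% of them in the highest cell. The share of monocytes with a Ccl4 UMI was instead higher in MMS, at 20.0% in control and 33.3% in MMS. After thinning these shares were 16.7% and 26.2%.

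Very few cells outside the macrophages held large parts of the remaining Ccl3 and Ccl4. In MMS, 3 cells passed the mast or basophil gate and held 341 Ccl3 UMIs and 653 Ccl4 UMIs, 18.2% and 26.5% of the gated totals. These 3 cells had UMIs of Mcpt8, the basophil protease, and none of the mast cell genes Kit, Mcpt4, Cma1 and Tpsb2. The 11 control cells of the same gate all had Kit, Mcpt4, Cma1 and Tpsb2, and held 0 UMIs of Ccl3 and Ccl4 but 128 of Ccl2 and 76 of Ccl7. The gate therefore held cells of different kinds in the libraries, and its values are no comparison between groups. MMS neutrophils held 16.1% of the gated Ccl4 UMIs. T or NK cells were a further source of Ccl4, and their order was opposite to that of macrophages or monocytes. Among the control T or NK cells, 7 of 28 held 177 Ccl4 UMIs, a level of 1038 CPM. Among those of MMS, 4 of 16 held 16 UMIs, a level of 153 CPM. Ungated cells held another 179 control and 126 MMS UMIs of Ccl4.

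Ccl6 and Ccl9, CCR1 ligands that macrophages make in the resting state, were the most widely detected ligands of that class. Ccl9 stood at 909 CPM for control and 684 for MMS, log2 ratio -0.41 (-0.45 to -0.37), with a UMI in 97.6% and 92.7% of cells. Endothelial cells had a Ccl9 UMI in 1.42% and 1.47%. Ccl6 stood at 782 and 665 CPM, log2 ratio -0.23 (-0.28 to -0.19). Both were thus a little lower in MMS macrophages or monocytes, under 2-fold. MMS neutrophils held 18.8% of gated Ccl6 UMIs, at 361 CPM.

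Ccl9 also marked a difference in lining fibroblasts. There it had 11 UMIs in 8 of 234 control cells and 877 in 222 of 631 MMS cells, 1.93 and 40.1 CPM, log2 ratio 4.38 (3.53 to 5.39). No MMS lining cell held more than 3.53% of these UMIs. After thinning, 0.855% of control and 13.3% of MMS lining cells had one. Sublining fibroblasts stood at 2.73 and 2.32 CPM, with an interval that spans 0 (log2 ratio -0.24, -0.91 to 0.39). The fibroblasts outside the named subclasses stood at 23.6 and 9.10 CPM, and 72.6% of their control UMIs lay in 1 cell. Over all fibroblasts Ccl9 had 198 UMIs in control and 1042 in MMS. Ccl6, the macrophage ligand most like Ccl9 in source, had 144 and 44 there. The origin of the UMIs of either ligand in fibroblasts was not tested.

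Ccl5, a ligand made by cytotoxic lymphocytes, was highest in T or NK cells, at 4145 CPM in 28 control cells and 3836 in 16 MMS cells, log2 ratio -0.11. Fibroblasts had 10 Ccl5 UMIs in control and 219 in MMS, and the latter lay in 13 cells, with 31.1% in 1 of them. Endothelial cells had 171 in control, 84.8% of them in 1 cell, and 1 in MMS. Among fibroblasts and endothelial cells, Ccl5 thus lay in few cells. Ungated cells held 403 Ccl5 UMIs in control and 89 in MMS, 29.7% and 11.8% of those in kept cells, and their cell type was not assigned.

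Ccl11 and Ccl24, the listed eosinophil attractants that act on CCR3, were both lower in MMS over all kept cells. Ccl11 (eotaxin), made almost wholly by fibroblasts in control (99.2% of gated UMIs), stood there at 112 CPM for control and 9.93 for MMS, an 11.2-fold lower level in MMS with log2 ratio -3.49 (-3.63 to -3.36). The share of fibroblasts with a Ccl11 UMI was 21.6% in control and 5.41% in MMS, or 17.9% and 3.96% after thinning. Macrophages or monocytes had one in 0.679% and 0.357%. Sublining cells alone stood at 134 and 38.1 CPM, log2 ratio -1.82 (-1.96 to -1.68), a smaller difference than over all fibroblasts.

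Mural cells, the pericytes and smooth muscle cells of vessels, carried Ccl11 as well. They stood at 48.6 CPM in control (14 UMIs, 52 cells) and 104.7 in MMS (77 UMIs, 68 cells), and held 12.2% of the gated Ccl11 UMIs in MMS. Fibroblast markers were detected on average for 36.5% of the list in control and 39.0% in MMS mural cells, and their part in this value was not tested. Ccl24 (eotaxin-2), known from alternatively activated macrophages, had 223.5 CPM for control and 98.8 for MMS macrophages or monocytes, log2 ratio -1.18 (-1.29 to -1.07). Macrophages or monocytes held 98.7% and 98.4% of its gated UMIs. In the resident macrophages it stood at 241 and 119 CPM.

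**Figure D3:**
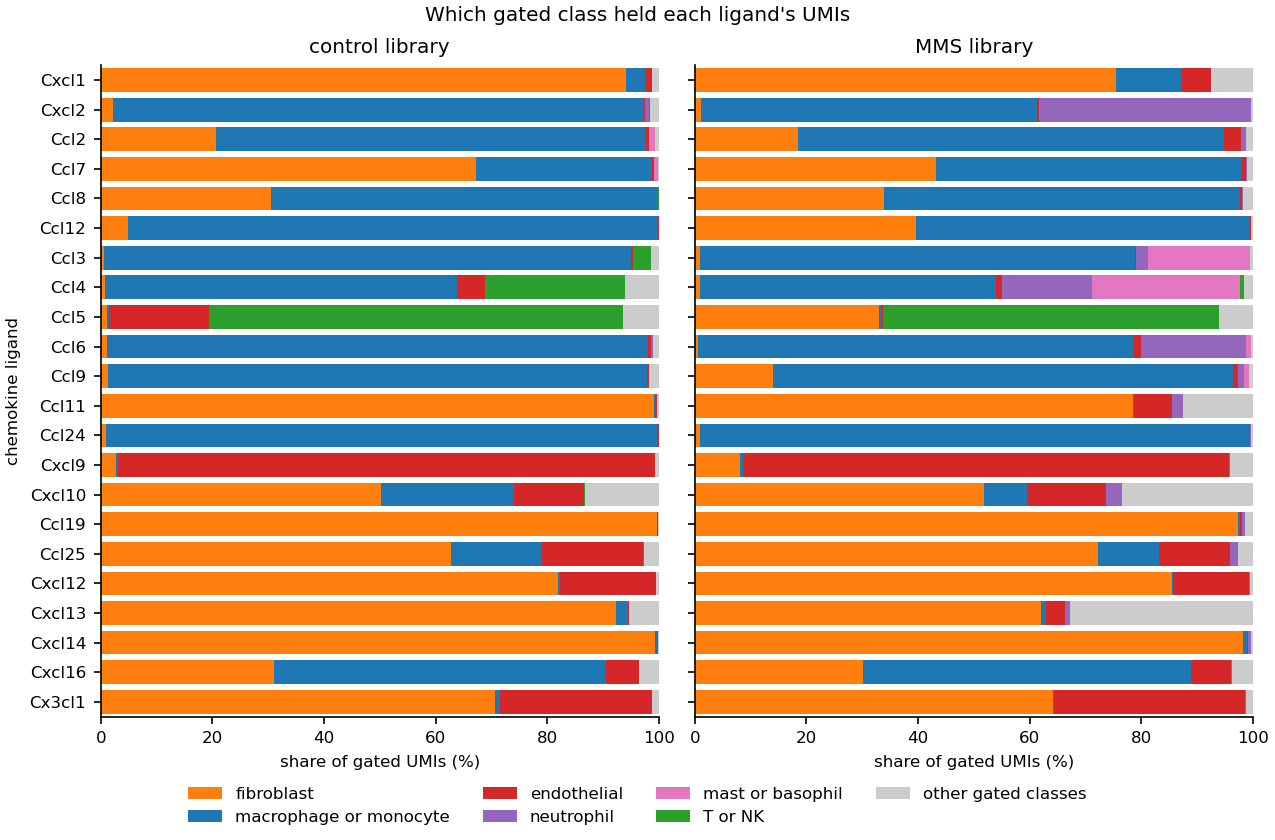
Share of each ligand's gated UMIs (x axis, in percent) held by each gated class (colours), for the 22 ligands with at least 400 gated UMIs in each library, in control (left) and MMS (right). Neutrophils hold 38.1% of Cxcl2 in MMS, and macrophages or monocytes hold 31.6% of Ccl7 in control and 54.7% in MMS.

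The interferon-induced ligands of CXCR3, which attract activated T cells, were mainly endothelial or spread over several classes. Cxcl9 held 96.4% of its gated UMIs in endothelial cells in control and 87.2% in MMS. There it stood at 302 CPM for control and 83.1 for MMS, log2 ratio -1.86 (-1.99 to -1.73), with a UMI in 42.5% and 26.9% of cells, or 42.2% and 20.6% after thinning. Macrophages or monocytes, with deeper cells, had one in 0.509% and 0.179%. The lower level was found in arterial cells (159 and 76.8 CPM), in venular cells (108 and 42.8 CPM) and in the other endothelial cells (421 and 175 CPM). Arterial and venular cells, both low in Cxcl9, were 583 and 46 of 1970 cells in control and 338 and 194 of 747 in MMS, so the difference within each was smaller than over the class.

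Cxcl10 had no single source. It stood at 8.104 and 9.07 CPM in fibroblasts, log2 ratio 0.16 (-0.04 to 0.36), an interval that spans 0. In macrophages or monocytes it stood at 11.4 and 7.64 CPM and in endothelial cells at 10.6 and 16.4, both under 2-fold. Dendritic cells had 83 UMIs in 11 of 59 control cells, 97.2 CPM, and 1 UMI in 8 MMS cells. Ungated cells held 15.9% of the Cxcl10 UMIs of kept control cells and 7.03% of those of MMS. Sublining fibroblasts had 8.78 and 21.3 CPM, log2 ratio 1.28 (1.03 to 1.52), but the MMS UMIs came from 28 cells, with 24.2% in 1 of them. Mural cells had 31.3 and 159 CPM, the latter from 5 of 68 cells.

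The homeostatic ligands were led by Cxcl12, the CXCR4 ligand that retains haematopoietic and endothelial cells in tissue. Fibroblasts held 82.0% of its gated UMIs in control and 85.5% in MMS, and endothelial cells 17.2% and 13.7%. In fibroblasts it stood at 1499 CPM for control and 1337 for MMS, log2 ratio -0.17 (-0.18 to -0.15). In endothelial cells it stood at 1640 and 1418 CPM, log2 ratio -0.21 (-0.25 to -0.17), and in arterial cells at 2014 and 2102. Macrophages or monocytes had 21.9 and 10.8 CPM, with a UMI in 20.4% and 14.3% of cells against 83.8% and 82.0% of fibroblasts.

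The near-equal fibroblast levels of Cxcl12 were made of opposite differences. Lining cells had 626.5 CPM for control and 1184 for MMS, log2 ratio 0.92 (0.87 to 0.97). Sublining cells had 1410 and 1920 CPM, log2 ratio 0.45 (0.42 to 0.47). The fibroblasts outside the named subclasses had 3830 and 1213 CPM, log2 ratio -1.66 (-1.69 to -1.63), and were 227 of 3152 cells in control and 557 of 1738 in MMS.

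Cxcl14, a ligand of epithelia and fibroblasts, showed the same contrast between the class and its parts. Fibroblasts as a whole stood at 852.5 CPM for control and 529 for MMS, log2 ratio -0.69 (-0.71 to -0.67). Sublining cells, which carried nearly all of it in control, stood at 994 and 1495 CPM, log2 ratio 0.59 (0.56 to 0.61). Lining cells stood at 6.66 and 20.9 CPM, with 42.0% of the MMS UMIs in 1 cell. The lower level over all fibroblasts stood beside a larger share of lining cells, while sublining cells themselves were higher in MMS.

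Ccl19, a CCR7 ligand that guides dendritic cells and T cells, was a sublining ligand. It stood at 352 CPM for control and 97.3 for MMS fibroblasts, log2 ratio -1.86 (-1.90 to -1.81). In sublining cells alone it stood at 393 and 286 CPM, log2 ratio -0.46 (-0.51 to -0.40), and in lining cells at 15.95 and 11.6. Most of the 3.62-fold difference over the class was thus not present within either subclass, while the remaining fibroblasts had 457 and 83.4 CPM.

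**Figure D4:**
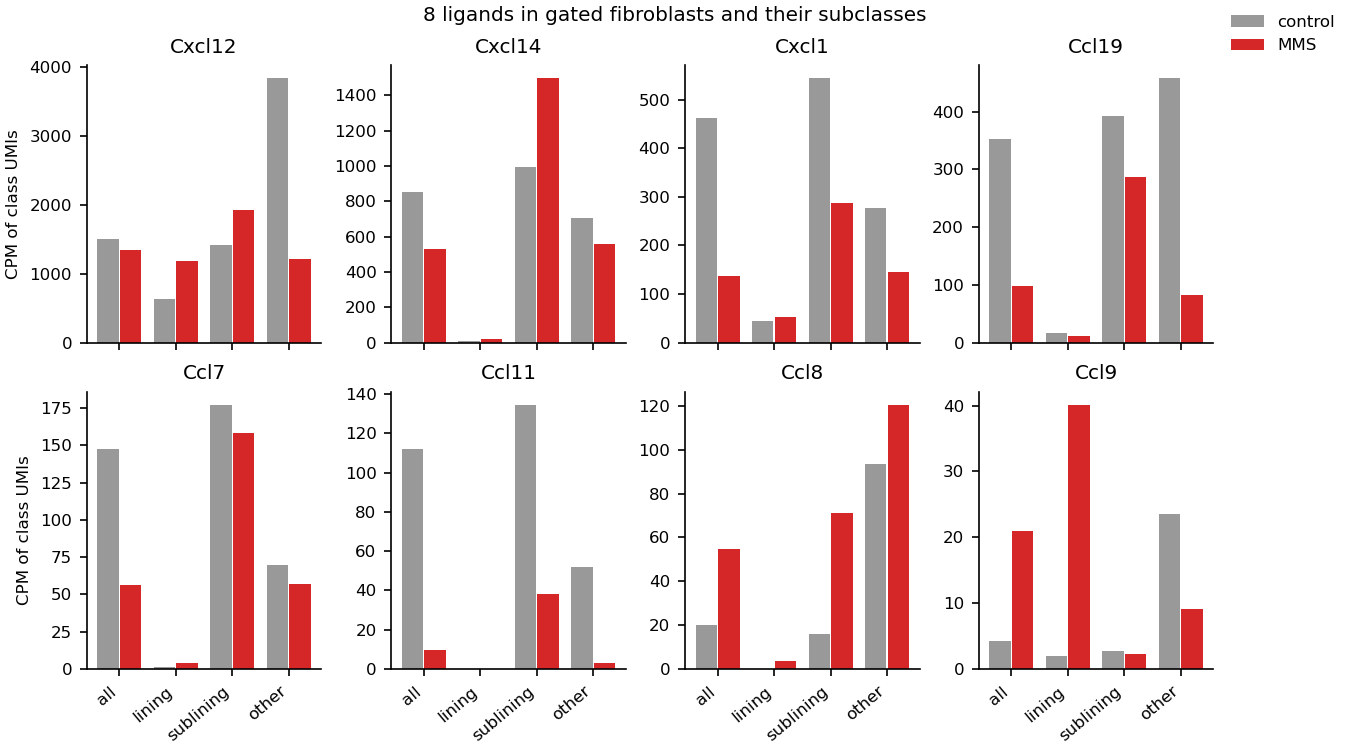
CPM of 8 ligands (panels, each with its own y axis) in all gated fibroblasts and in the lining, sublining and other fibroblasts, in control (grey) and MMS (red), 1 library each. Cxcl14 is lower in MMS over all fibroblasts (853 and 529 CPM) and higher within the sublining cells (994 and 1495 CPM), and Ccl9 is highest in MMS lining cells (40.1 CPM).

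Cxcl13, the B cell attractant that binds CXCR5, stood at 96.1 CPM for control and 22.4 for MMS fibroblasts, log2 ratio -2.10 (-2.20 to -2.01). Its UMIs lay in 394 of 3152 control and 52 of 1738 MMS fibroblasts, and 26.5% of the MMS UMIs were in 1 cell. Sublining cells had 112 and 60.7 CPM. Cells gated as adipocytes were the next source, with 264 UMIs in 5 of 19 control cells and 336 in 2 of 19 MMS cells, and 1 cell held 76.9% and 99.4% of these. A single MMS Schwann cell held 215 Cxcl13 UMIs, 1 MMS endothelial cell 60 and 1 MMS mural cell 39, and 96 (85.7%) of the 112 control macrophage UMIs lay in 1 cell. Ccl21a, which lymphatic vessels make to draw CCR7-bearing cells in, had 1206 UMIs in 3 of 8 control lymphatic cells, 904 of them in 1 cell, and 0 in 4 MMS lymphatic cells, where 3 counts would give 34.98 CPM.

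Cxcl16, the CXCR6 ligand and scavenger receptor of macrophages, stood at 124.5 CPM for control and 195 for MMS macrophages or monocytes, log2 ratio 0.65 (0.55 to 0.74). Dendritic cells had higher levels, 134.7 CPM with a UMI in 45 of 59 control cells and 628.8 CPM in all 8 MMS cells, with 42.5% of the latter UMIs in 1 cell. In sublining fibroblasts Cxcl16 stood at 21.2 and 10.4 CPM, and in lining cells at 22.3 and 25.8. Ccl25 and Ccl27a were low in several classes. Ccl25 stood at 6.04 and 6.72 CPM in fibroblasts, with an interval that spans 0 (log2 ratio 0.15, -0.08 to 0.39), and Ccl27a at 12.2 and 5.72, log2 ratio -1.10 (-1.31 to -0.89). Ccl28 had 20 and 45 fibroblast UMIs.

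Of the remaining ligands, those directed at T cells and others listed with them, Cx3cl1 (fractalkine, the membrane-bound ligand of CX3CR1) was shared by fibroblasts and endothelial cells. Fibroblasts stood at 7.34 CPM for control and 7.31 for MMS, log2 ratio -0.01 (-0.22 to 0.21), and endothelial cells at 14.8 and 25.9, log2 ratio 0.81 (0.48 to 1.14). Ccl17 and Ccl22, CCR4 ligands known from dendritic cells, rested on few dendritic cells here. Ccl17 had 75 UMIs in 59 control dendritic cells and 83 in 8 MMS ones, 54 of the latter in 1 cell, and 51.2% of all control Ccl17 UMIs lay in ungated cells. Macrophages or monocytes were its largest gated source in control, with 108 Ccl17 UMIs, and held 9 in MMS, 6.76 and 1.01 CPM. That difference did not stay past 2-fold under every alternative processing. Ccl22 had 60 and 25 UMIs in all kept cells, and 85.0% of the control ones were ungated.

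Ccl20, the CCR6 ligand of Th17 cells, had 4 UMIs in control and 157 in MMS, all in fibroblasts, and 87.3% of the MMS UMIs lay in 1 cell. Xcl1, a ligand of NK and T cells for XCR1 on dendritic cells, had 39 UMIs in 28 control T or NK cells and 8 in 16 MMS ones. Endothelial cells held a further 26 Xcl1 UMIs in control and 0 in MMS, and Xcl1 was among the 5 ligands counted as lower there. Ccl1 had 2 UMIs in control and 18 in MMS. For these 3 ligands the counts are too small or too concentrated for a level per class.

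The receptors and atypical receptors were read from fixed lists, of which 5 genes also served as gate markers. These were Cxcr2 (neutrophil), Ccr2 (monocyte), Ccr7 and Xcr1 (dendritic), and Ackr1 (venular) among the atypical receptors. Over all kept cells 5 of 16 receptors counted were higher in MMS past 2-fold and 3 lower, against 11.3% and 8.5% of all genes. Ccr6, among the higher, had 6 and 13 UMIs and an interval that spans 0 (-0.38 to 2.80). Cxcr2, the receptor of Cxcl1, Cxcl2, Cxcl3 and Cxcl5 and a neutrophil gate marker, stood at 0.818 and 30.4 CPM, in step with the 6 and 256 neutrophils. Ccr1, the receptor of Ccl3, Ccl6 and Ccl9, stood at 129 and 222 CPM in macrophages or monocytes, and Ccr2, the receptor of Ccl2, at 249.5 and 375. Ccr3, the receptor of Ccl11 and Ccl24, had 16 and 78 UMIs there, log2 ratio 3.13. Over all kept cells Ccl11 and Ccl24 were lower in MMS, while Ccr3 had 22 UMIs in control and 85 in MMS.

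Of the 5 listed atypical receptors, which do not themselves signal to migration, 0 passed 2-fold over all cells. Ackr1, a venular gate marker, stood at 61.5 and 11.1 CPM in fibroblasts, log2 ratio -2.47 (-2.60 to -2.34), and at 22.02 and 157.6 in endothelial cells, but at 372.5 and 455 in the venular cells, log2 ratio 0.29 (0.06 to 0.52). Ackr3, which binds Cxcl12, stood at 530.3 and 369.8 CPM in fibroblasts. Ccrl2 stood at 33.2 and 72.1 CPM in macrophages or monocytes, log2 ratio 1.12 (0.95 to 1.29).

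The list of inducers and NF-kappaB genes was counted in the same classes. Among macrophages or monocytes 3 of 18 were higher in MMS and 0 lower, against 5.31% and 5.02% of genes: Tnf at 51.7 and 145 CPM, Il1b at 119.98 and 284 CPM, and Il1a. In fibroblasts 0 of 17 were higher and 3 lower, against 12.1% and 9.72%: Il6 at 37.9 and 9.89 CPM, the interleukin-1 receptor Il1r1 at 184 and 72.2 CPM, and Irf1 at 76.7 and 28.8 CPM. In lining cells alone 4 of 17 were higher (Il1b, Il6, Il17ra and Bcl3) and 0 lower, against 8.35% and 5.32%, with Il6 at 3.16 and 9.01 CPM and Irf1 at 16.3 and 15.7. In endothelial cells 4 of 17 were higher and 0 lower, against 9.68% and 4.75%, among them Il6 at 3.56 and 41.04 CPM and Il1r1 at 18.3 and 91.3. Venular cells, 46 of 1970 in control and 194 of 747 in MMS, had Il6 at 42.1 and 81.3 CPM and Il1r1 at 114 and 191, both under 2-fold. Within sublining cells, Il1r1 stood at 214 and 185 CPM, so its fibroblast difference, like that of Ccl19, was smaller within the subclass.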

How the data were processed

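Droplet single-cell libraries (10x Genomics 3' v3.1) of 2 pooled synovium samples were analysed. The deposited matrices hold raw UMI counts per gene and barcode. Their headers name Cell Ranger 5.0.0, per the file headers, whereas version 2.0.0 and the build mm10 stand in the submitters' processing notes. Which options were set was not stated in the sources at hand. Gene coordinates come from GENCODE M21 (GRCm38) and promoter windows from RefSeq (GRCm38.p6).

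Cells were kept with at least 1000 UMIs, 500 genes and at most 10% mitochondrial UMIs, without doublets called by scrublet (scanpy 1.11.5, expected rate 0.06): 184 control and 104 MMS barcodes were removed. That left 6891 of 8810 and 3767 of 5286 barcodes, from totals of 84900876 and 85597195 UMIs. A cell joined the class with the highest share of its markers detected, where that share reached 0.5 (0.4 for small immune classes) and led the next by 0.2; subclasses needed 0.3 and a lead of 0.15. Dendritic and lymphatic cells were taken by marker rules of their own.

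For each class and library, UMIs were added up and scaled to CPM of the class total. Ratios have exact conditional binomial 95% intervals, for counting error only, and shares exact Clopper-Pearson ones. Where a library had 0 UMIs, 3 counts over the class stood in. Values are given for ligands with at least 50 UMIs in a class; others are named by their counts. The calculation was tested on simulated data. The members, lists, markers and promoter motifs were chosen with earlier results of these data known, and the motifs were shortened by a base after a first search. Alternatives are given in the closing section.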

Additional observations from a re-analysis of the deposited data

Results flagged for a closer look

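Cxcl1, Cxcl13, Ccl5, Ccl7 and Ccl11 lay past 2-fold in opposite directions in different classes, and the difference between classes was not tested. Cxcl1 had a log2 ratio of -1.76 in fibroblasts and 1.30 in macrophages or monocytes. Ccl7 had -1.39 in fibroblasts and 1.31 in endothelial cells, where it had 28 and 58 UMIs. Ccl11 had -3.49 in fibroblasts and 1.60 in endothelial cells, where it had 17 and 43 UMIs and 58.1% of the MMS ones lay in 1 cell. Cxcl13 had -2.10 in fibroblasts, -1.88 in macrophages or monocytes and 4.58 in endothelial cells, the last from 1 MMS cell. Ccl5 had 4.37 in fibroblasts and -7.16 in endothelial cells, where 1 control cell held 84.8% of 171 UMIs.

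Barcodes left out by the filters also held ligand UMIs. Xcl1 reached 27.3 CPM in the excluded MMS barcodes, against 0.141 in kept MMS cells, and all 204 of its UMIs lay in 1 barcode called a doublet. Ccl12 reached 56.9 CPM there, against 12.7 in kept cells, with 425 UMIs in 57 of 1519 barcodes.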

How the results depend on the processing

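No paired analysis was possible because each group is 1 library. The alternatives changed the filters on cells, the doublet step, the scaling, the ligand minimum, the gates, or used clusters in place of gates; leaving out each ligand's highest cell was added after seeing the data. Of the ligands with at least 50 UMIs that lay past 2-fold, 12 of 17 over all cells, 11 of 14 in fibroblasts, 5 of 10 in macrophages or monocytes and 5 of 8 in endothelial cells stayed past it in the same direction under every alternative. The 5 endothelial ligands include Cxcl13, with all 60 of its MMS UMIs in 1 cell. Without that cell MMS had no Cxcl13 UMIs left, so that alternative could not show Cxcl13 staying higher. For each count below, the cause was not tested beyond what an alternative removes.

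In macrophages or monocytes the 5 lower ligands became 3 with a mitochondrial limit of 5%, 3 with 20% and 3 without each highest cell. Over all cells the 11 lower became 7 with a mean over cells. In endothelial cells the 8 higher became 5 with a minimum of 50 UMIs, 2 with stricter gates, 5 with clusters and 2 without each highest cell, and the 5 lower became 3 with a minimum of 50 UMIs. Reversed log2 ratios were Cxcl13 in macrophages or monocytes at 2.18 (limit of 5%; 9 and 14 UMIs), Xcl1 over all cells at 1.45 and endothelial Ccl7 at -0.30 with doublets kept, and, with stricter gates, endothelial Ccl7 at -0.86 and Ccl11 at -0.83. With a limit of 5% the macrophage ratios of Cxcl2 and Cxcl1 were 0.77 and 0.53, under 2-fold.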
